A study of Drosophila melanogaster with 8 samples.

Results

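The sites described here are those at which SIN3 187HA and SIN3 220HA each gave a single overlapping peak and the SIN3 187HA peak was at least 2 times as wide as its SIN3 220HA partner. They were chosen by the widths of the called peaks alone. Filtered peaks were paired when each shared at least 1 bp with exactly 1 filtered peak of the other isoform. This gave 3869 one-to-one pairs, drawn from 4903 SIN3 187HA peaks and 5810 SIN3 220HA peaks. Of these pairs, 83 met the width rule, which is 2.15% of the pairs. They make up 1.69% of the filtered list of SIN3 187HA and 1.43% of that of SIN3 220HA.

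The peaks come from ChIP-seq, the sequencing of DNA pulled down with a chromatin protein, in Drosophila S2 cells, which were derived from embryos and grow in culture. A first stable line carried HA-tagged SIN3 187 and was induced with copper. A second stable line carried HA-tagged SIN3 220 under the same metallothionein promoter and was used without induction, because the promoter leaked. There were 2 immunoprecipitates with an antibody against HA and 2 input DNA samples for each line (8 samples in all), and peaks were called on joined replicates. Each isoform therefore has 1 value at each site with no replicate spread, and isoform, line and copper treatment cannot be told apart. In the study the SIN3 187HA line had lost nearly all of its own SIN3 220. An immunoprecipitate from untagged cells was not analysed here. Intervals below are 95% exact intervals over sites and cover counting error alone. Positions are in the dm3 build.

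SIN3 is the scaffold of a histone deacetylase complex. It does not recognise DNA sequence by itself, but holds the deacetylase RPD3 and accessory proteins and is brought to chromatin by DNA-binding factors, often at promoters, where removal of acetyl groups from histones is associated with repression. SIN3 187 and SIN3 220 are made from a single gene by alternative splicing and differ at the C-terminal end. SIN3 220 is the main form in S2 cells, and SIN3 187 gains ground late in embryogenesis. The width of a ChIP-seq peak is the length over which the read pileup stays above the input background by the caller's threshold, so it reflects how far along the chromatin the signal is detected, and also how strong the signal is.

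A wide SIN3 187HA peak over a narrow SIN3 220HA peak was the rarer of the 2 possible forms. The width ratio is given throughout as SIN3 187HA over SIN3 220HA. SIN3 187HA was at least 2 times as wide in 83 pairs, whereas SIN3 220HA was at least 2 times as wide in 221 pairs. Over the 3786 pairs outside the set the median ratio was 0.91, so that the SIN3 220HA peak was usually the slightly wider one. At the stricter level of 3 times, 24 pairs had the wider SIN3 187HA peak and 48 pairs the wider SIN3 220HA peak. At 5 times the counts were 8 and 6. The SIN3 220HA list had the higher summit pileups. A median of 125 reads piled up at the summit in the SIN3 187HA list, against 189 reads in the SIN3 220HA list. The part of this in the excess of wider SIN3 220HA peaks was not tested.

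**Figure D1:**
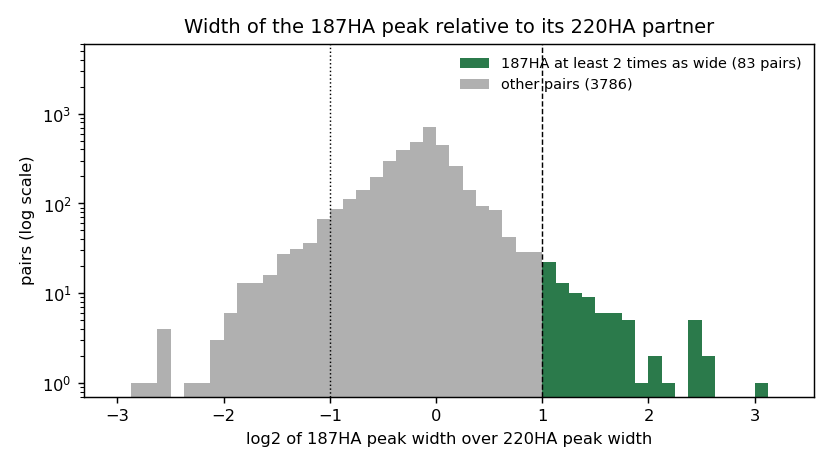
Number of one-to-one pairs (vertical axis, log scale) by the log2 of the SIN3 187HA peak width over the SIN3 220HA peak width (horizontal axis). The 83 pairs at or right of the dashed line, in green, are the set described here, and the 221 pairs at or left of the dotted line are those with the SIN3 220HA peak at least 2 times as wide.

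Because width chose the sites, their widths are a description and were not tested. The median SIN3 187HA peak spanned 1273 bp, with quartiles of 968.5 and 1768 bp and a range of 508 to 3321 bp. The median SIN3 220HA peak spanned 466 bp, with quartiles of 337 and 679 bp and a range of 194 to 1391 bp. The median ratio was 2.53 (interval 2.35 to 2.70) and the highest was 8.44. Both partners departed from the widths usual in their lists. The SIN3 187HA peaks stood at a median percentile of 76.8 for width among filtered SIN3 187HA peaks, and the SIN3 220HA peaks at a median percentile of 14.2 among filtered SIN3 220HA peaks, where a percentile is the share of peaks of the same list with a lower value. In 69 of the 83 pairs the SIN3 187HA peak was wider than its list median of 818 bp, in 69 pairs the SIN3 220HA peak was narrower than its list median of 844 bp, and in 55 pairs both held. In total the sites covered 118 kb in SIN3 187HA and 43.3 kb in SIN3 220HA, and 75.8 kb of the SIN3 187HA length lay outside the SIN3 220HA partners.

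Just inside the threshold lay chr3R:5756624-5758440, where the SIN3 187HA peak of 1817 bp and the SIN3 220HA peak of 907 bp gave a ratio of 2.003. Next to it was chr3L:20396155-20397527, with 1373 bp for SIN3 187HA, 676 bp for SIN3 220HA and a ratio of 2.03. Just outside lay chrX:20935459-20937493, with 2035 bp against 1020 bp and a ratio of 1.995. The next was chr3R:8499744-8500415, with 672 bp against 337 bp and a ratio of 1.99. The ratios thus ran on without a gap across the threshold, and 204 pairs in all, these 83 included, had a ratio of at least 1.5.

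The SIN3 220HA peak mostly lay wholly within the SIN3 187HA peak. This was so in 69 of 83 pairs, or 83.1% (interval 73.3 to 90.5%), against 15.3% of all one-to-one pairs and 46.2% (interval 43.3 to 49.2%) of the 1130 pairs in which SIN3 187HA was wider by less than 2 times. A much narrower peak has more room to lie inside its partner, so the width rule itself raises this share. The mirror set of 221 pairs had a share of 85.5% (interval 80.2 to 89.9%) for the SIN3 187HA peak inside the SIN3 220HA peak. In the remaining 14 pairs the SIN3 220HA peak stuck out past 1 end, by up to 50 bp in 9 pairs and by more in 5 pairs. The largest overhang was 587 bp, at chr3R:19839896-19841987.

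The narrower peak lay at varied positions within the SIN3 187HA peak. Its centre stood at a median of 0.448 of the SIN3 187HA width from the low-coordinate end (quartiles 0.279 and 0.645). In the mirror set the SIN3 187HA centre stood at a median of 0.499 of the SIN3 220HA width (quartiles 0.293 and 0.717). With the SIN3 187HA peak cut into 3 equal stretches, the SIN3 220HA centre fell in the low-coordinate stretch in 32 pairs, in the middle stretch in 31 pairs and in or past the high-coordinate stretch in 20 pairs. Strand was not known, so the sides carry no direction of transcription. The SIN3 187HA peak was called extended on 1 side where at least 75% of its bases outside the SIN3 220HA peak lay on that side. By this measure 54 of 83 pairs, or 65.1% (interval 53.8 to 75.2%), were extended on 1 side, 33 of them towards higher and 21 towards lower coordinates. The other 29 pairs were extended on both sides. The background share is 89.3% over the 1986 pairs with any SIN3 187HA base outside the SIN3 220HA peak. In those pairs the extra stretch is often a few bases at a single edge, so that share is not a like comparison. In the mirror set 58.8% of pairs (interval 52.0 to 65.4%) were extended on 1 side. The intervals of the set and the mirror set overlap.

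The extra stretches were long, which the width rule in part fixes. The larger of the flanks had a median of 704 bp and a highest value of 2497 bp, while the smaller flank had a median of 115 bp. In 52 pairs the larger flank reached at least 500 bp, and in 22 pairs at least 1 kb. Flanks of these lengths were not counted in other pairs. Both flanks together had a median of 838 bp (interval 684 to 910 bp) in the set. In the mirror set that median was 721 bp (interval 668 to 788 bp). In 22 pairs a SIN3 220HA edge lay within 50 bp of the SIN3 187HA edge, and in 10 pairs within 10 bp. Conversely, both SIN3 220HA edges were more than 50 bp inside in 56 pairs and more than 200 bp inside in 20 pairs. Edge distances were not counted over all one-to-one pairs, so these counts are not a trait of the set.

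**Figure D2:**
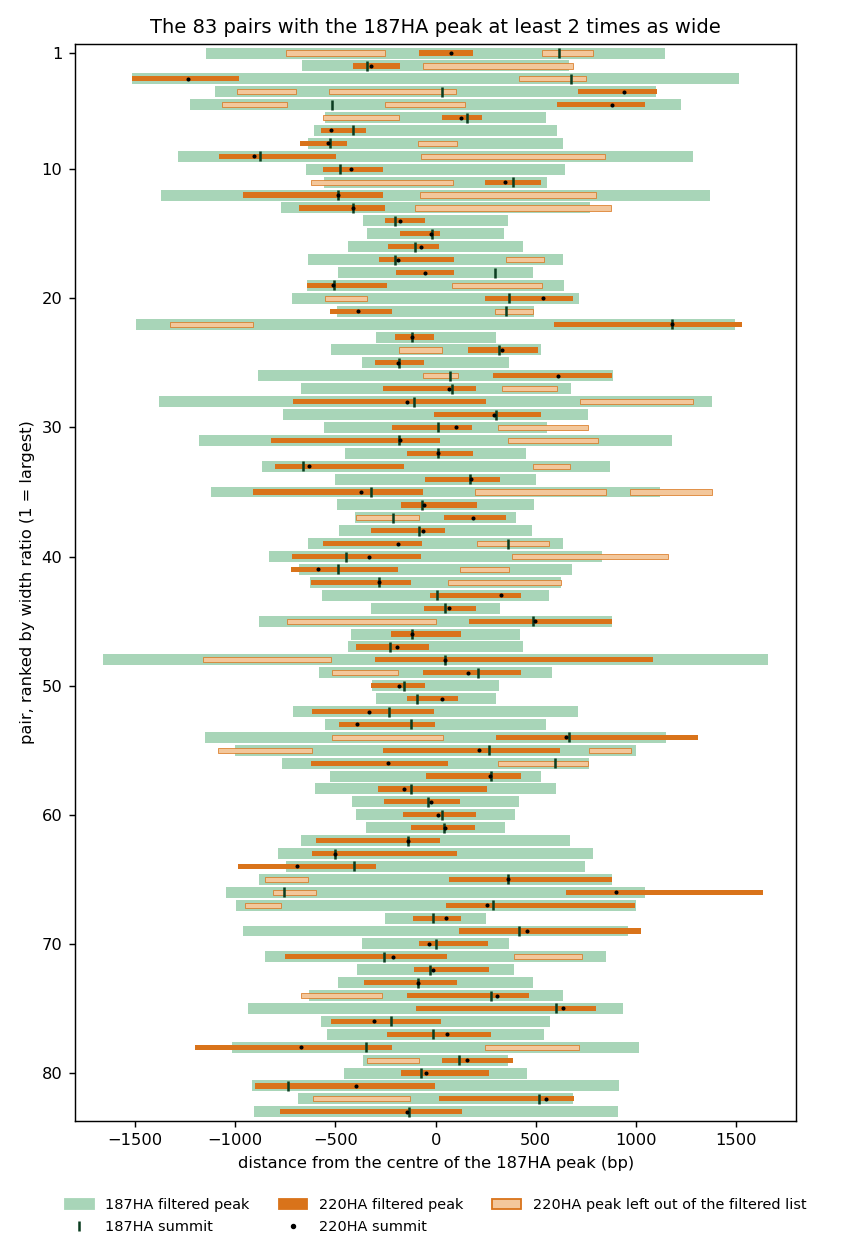
Map of the 83 pairs, one row each and ranked by width ratio from the largest at the top, against the distance in bp from the centre of the SIN3 187HA peak. Green bars are SIN3 187HA peaks, orange bars their filtered SIN3 220HA partners, pale bars SIN3 220HA peaks left out of the filtered list, ticks SIN3 187HA summits and dots SIN3 220HA summits. In most rows the tick and the dot lie close together inside the orange bar, and pale bars fill part of the green extension in 43 rows.

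Despite the difference in extent, the points of highest signal of the isoforms mostly lay within 100 bp of each other, as they did in all one-to-one pairs. The SIN3 220HA summit lay inside the SIN3 187HA peak in all 83 pairs. The SIN3 187HA summit lay inside the narrower SIN3 220HA peak in 72 of 83 pairs, or 86.7% (interval 77.5 to 93.2%), against 99.6% of all one-to-one pairs and 99.6% (interval 99.0 to 99.9%) of the less wide pairs. The lower share in the set is in part built in, since a narrow partner leaves more of the SIN3 187HA peak outside it.

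The median distance between the summits was 32 bp (interval 21 to 38 bp) in the set and 19 bp (interval 18 to 20 bp) in the 3786 other pairs. Of the 83 pairs, 63 had summits within 100 bp, or 75.9% (interval 65.3 to 84.6%), against 79.4% of all one-to-one pairs and 78.3% (interval 72.3 to 83.5%) of the mirror set. The interval of the set includes both of these shares. In 23 pairs the summits lay within 10 bp, and in 2 pairs at the same base. Summits were more than 200 bp apart in 16 pairs and more than 500 bp apart in 9 pairs.

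**Figure D3:**
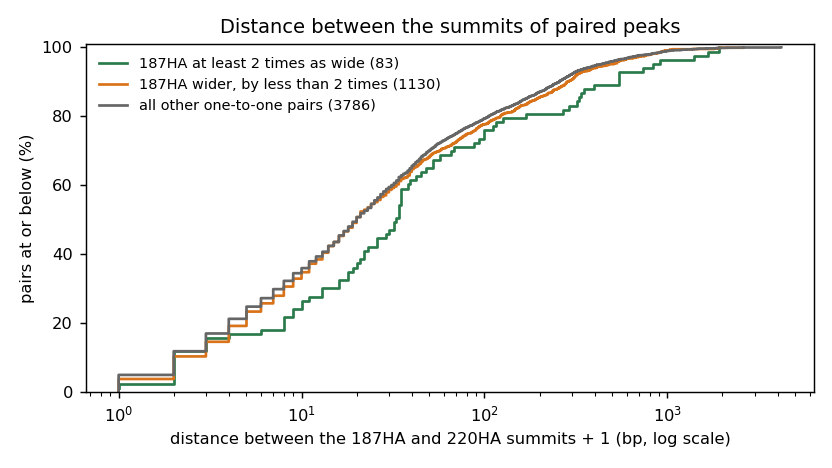
Cumulative share of pairs (vertical axis, %) by the distance between SIN3 187HA and SIN3 220HA summits plus 1 bp (horizontal axis, bp, log scale). The green line is the set of 83 pairs, the orange line the 1130 pairs with SIN3 187HA wider by less than 2 times, and the grey line all 3786 other pairs; 75.9% of the green set lies at or below 100 bp.

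At the 11 sites where the SIN3 187HA summit lay outside the SIN3 220HA partner, the summits were 351 to 1915 bp apart, with a median of 739 bp. The 4 farthest apart were chr3R:16884275-16887307 with 1915 bp, chr3R:19839896-19841987 with 1656 bp, chr2R:8565075-8567526 with 1398 bp and chr3R:5358445-5360648 with 910 bp. At 9 of the 11 sites the SIN3 187HA summit fell on a weaker SIN3 220HA peak that was in the unfiltered list but not in the filtered list. Both unfiltered lists thus held a call at that summit, but the SIN3 220HA call had not passed the filters. Only the SIN3 187HA call ran on to the stronger SIN3 220HA summit as 1 filtered peak. Of the other 2 sites, chr2R:8565075-8567526 had weaker SIN3 220HA peaks on both sides of the SIN3 187HA summit, and chrX:5785523-5786496, named after its values were seen, had no other SIN3 220HA peak.

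The unfiltered SIN3 220HA list gave a division of the set that the width rule did not use. In 43 of 83 pairs, or 51.8% (interval 40.6 to 62.9%), at least 1 SIN3 220HA peak that had been filtered out lay under the SIN3 187HA peak beside the filtered partner. The same holds for 3.20% of all one-to-one pairs and 6.81% (interval 5.41 to 8.44%) of the pairs with SIN3 187HA wider by less than 2 times, whose extra stretches are shorter. In the mirror set the share was 49.8% (interval 43.0 to 56.6%) for filtered-out SIN3 187HA peaks. Measured in bases, filtered-out SIN3 220HA peaks covered 25.7% of the extra stretches of the set and 9.83% of those of the less wide pairs. The remaining 74.3% of the extra bases lay under no SIN3 220HA peak of either list.

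There were 48 such filtered-out SIN3 220HA peaks, 1 at each of 38 sites and 2 at each of 5 sites. Their fold enrichment, the summit pileup over the local input background, was 2.38 at the median, with a range of 1.73 to 3.66. Below the threshold of 3-fold lay 44 of them, and 45 lay below the lowest -log10 p-value of the filtered list, 21.9. These low values are largely fixed in advance, since the peaks are those that the filters removed. Among all 3052 filtered-out SIN3 220HA peaks the median was 2.58-fold, and 2390 lay below 3-fold. They had a median width of 404.5 bp, and the nearest was a median of 260 bp from the filtered SIN3 220HA peak. The smallest gap was 116 bp, close to the 102 bp that was the smallest distance between neighbouring peaks in either unfiltered list. These sites were therefore called as 1 peak in SIN3 187HA, and as a stronger peak with 1 or 2 weaker ones in SIN3 220HA. The lists hold no signal between peaks.

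When all SIN3 220HA peaks under a SIN3 187HA peak, filtered or not, were joined into 1 span, a measure added after the data were seen, none of the 43 sites kept a ratio of 2. Their ratios to the span ran from 0.85 to 1.87 with a median of 1.14, and in 7 of them the SIN3 220HA span was the longer one. Summing the SIN3 220HA widths without the gaps between them left 9 of the 43 sites at a ratio of 2 or more. The other 40 sites had no further SIN3 220HA peak and kept their ratios. About as many sites thus showed a wide SIN3 187HA peak over more than 1 SIN3 220HA peak as showed one over a single narrow SIN3 220HA peak.

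**Figure D4:**
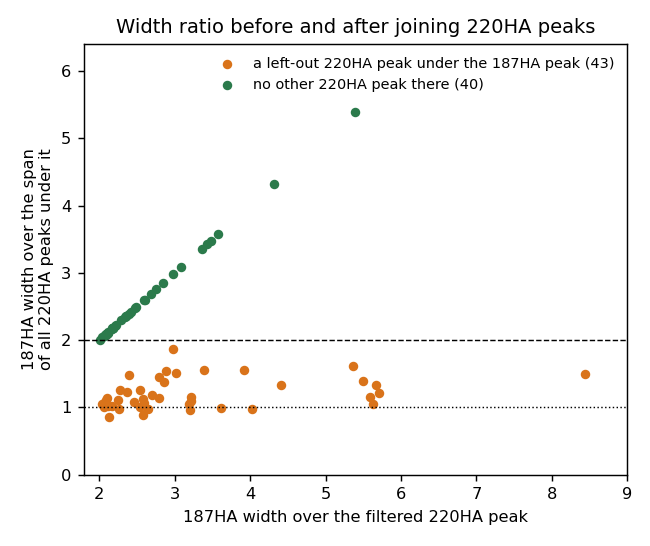
Width of the SIN3 187HA peak over that of the filtered SIN3 220HA partner (horizontal axis) and over the span of all SIN3 220HA peaks under it, filtered or not (vertical axis), for the 83 pairs. The 43 orange points, which have a left-out SIN3 220HA peak, all fall below the dashed line at 2, and the 40 green points stay where they were.

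The 2 kinds of site differed in size. Sites with a filtered-out SIN3 220HA peak had a median SIN3 187HA width of 1662 bp and a median width ratio of 2.79, against 974.5 bp and 2.32 for sites without one. Extension on 1 side was found at 34 of the 43 sites with such a peak and at 20 of the 40 without. The SIN3 187HA summit lay outside the SIN3 220HA partner at 10 of the 43 and at 1 of the 40. The sites with such a peak had the longer SIN3 187HA peaks, and the part of length in the other differences was not tested. The widest ratios were mostly at sites with a filtered-out SIN3 220HA peak. This held for 7 of the 8 sites at 5 or more and 17 of the 24 sites at 3 or more, against 26 of the 59 sites under 3. Median fold enrichment was close in both kinds, at 5.96 with a filtered-out peak and 5.85 without for SIN3 187HA, and at 4.68 and 4.14 for SIN3 220HA.

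Each of the 6 sites of largest ratio had at least 1 filtered-out SIN3 220HA peak under the SIN3 187HA peak. At chr3L:9757900-9760187, the site of highest ratio, the SIN3 187HA peak of 2288 bp ran 1059 bp to the low-coordinate side and 958 bp to the high-coordinate side of a SIN3 220HA peak of 271 bp, at 9758959 to 9759229. Its fold enrichment was 7.13 in SIN3 187HA (percentile 65.9) and 3.10 in SIN3 220HA (percentile 1.03), with pileups of 146 and 116 reads. Filtered-out SIN3 220HA peaks of 2.79-fold and 2.49-fold lay on either side, and the SIN3 187HA summit, 542 bp from that of SIN3 220HA, fell on the second of them. With all 3 SIN3 220HA peaks joined, the ratio was 1.49 in place of 8.44.

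At chr3R:11818633-11819962 the SIN3 187HA peak was 1330 bp and the SIN3 220HA peak 233 bp wide, a ratio of 5.71. The fold enrichments were nearly the same, 4.71 in SIN3 187HA and 4.72 in SIN3 220HA, and the summits were 21 bp apart. The extension held a SIN3 220HA peak of 2.14-fold and 750 bp, only 116 bp from the filtered one. At chr2L:7725798-7726902 the widths were 1105 bp for SIN3 187HA and 201 bp for SIN3 220HA, with summits 31 bp apart and pileups of 192 and 98 reads. At these sites the summits lay close together while the extent differed.

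At the other 3 sites the summit moved with the extent. The SIN3 187HA peak at chr3R:5358445-5360648 was 2204 bp wide and its SIN3 220HA partner, at 5360260 to 5360651, was 392 bp wide and overhung the high-coordinate end by 3 bp. The pileups there were 106 reads in SIN3 187HA and 114 in SIN3 220HA. The SIN3 187HA peak at chr2R:8565075-8567526 was 2452 bp wide over a SIN3 220HA peak of 439 bp, with fold enrichments of 6.79 and 3.36. Both sites had 2 filtered-out SIN3 220HA peaks. At chr3R:16884275-16887307 the SIN3 187HA peak of 3033 bp and the SIN3 220HA peak of 535 bp began 1 bp apart, and the extension of 2497 bp was wholly on the other side.

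That last site also had an input background far above the list medians. Its recovered background was 405 reads in SIN3 187HA, where the list median was 19.7 reads, and 541 reads in SIN3 220HA, where the list median was 29.4 reads, and its pileups were 2313 and 1908 reads. A further site in the same chromosome arm, chr3R:17480629-17483949, carried the widest SIN3 187HA peak of the set, 3321 bp. Its background was 600.1 reads in SIN3 187HA and 60.5 reads in SIN3 220HA, a ratio of 9.92, with pileups of 2950 and 223 reads. At chr3L:3447379-3448920 SIN3 187HA had a background of 111 reads and SIN3 220HA one of 49.6 reads. These 3 sites had a SIN3 187HA background of at least 4 times the list median, which is 3.61% of the set and 0.594% of all one-to-one pairs. Without them 80 sites remained, the median ratio was 2.51 and the share with a filtered-out SIN3 220HA peak was 50%.

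Over the whole set the backgrounds were closer to those of other pairs. The median background was 21.6 reads (interval 20.3 to 24.2) for SIN3 187HA in the set and 19.6 reads (interval 19.4 to 19.9) in other pairs. For SIN3 220HA it was 30.6 reads (interval 28.9 to 33.6) in the set and 30.7 reads (interval 30.3 to 31.0) in other pairs. The SIN3 187HA background was thus slightly higher than in other pairs, and the part of that in the widths was not tested.

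The strength of the peaks comes from the same calls as their width and is described without a test. Median fold enrichment at the sites was 5.90 (quartiles 4.89 and 7.67) in SIN3 187HA and 4.28 (quartiles 3.54 and 5.13) in SIN3 220HA. Since the lists differ in summit pileup, each value was ranked in its own list. The SIN3 187HA peaks stood at a median percentile of 48.5 (interval 40.02 to 57.5), the middle of their list, and the SIN3 220HA peaks at 20.2 (interval 12.9 to 28.8). In the 3786 other pairs the median percentile was 54.6 in SIN3 187HA and 62.5 in SIN3 220HA. The sites were thus in the middle of the SIN3 187HA list and low in the SIN3 220HA list.

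**Figure D5:**
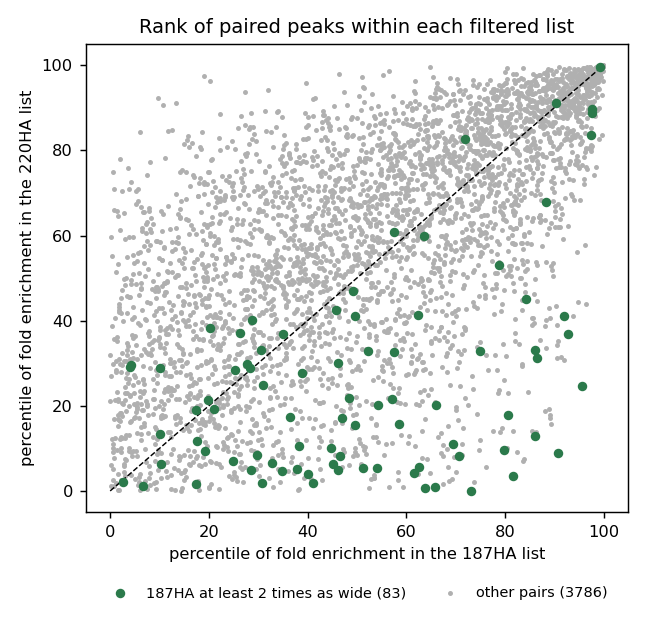
Percentile of fold enrichment within the filtered SIN3 187HA list (horizontal axis) and within the filtered SIN3 220HA list (vertical axis) for each one-to-one pair, with the line of equal percentiles dashed. Of the 83 green points, 65 lie below the line, against 39.1% of all pairs, and 5 sit in the upper right with both percentiles at 75 or more.

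The SIN3 187HA percentile was above the SIN3 220HA percentile at 65 of 83 sites, or 78.3% (interval 67.9 to 86.6%), against 39.1% of all one-to-one pairs. Fold enrichment itself was higher in SIN3 187HA at 68 of 83 sites, or 81.9% (interval 72.0 to 89.5%), against 32.6% of all pairs. The SIN3 220HA peak stood in the lower part of its list, below percentile 50, at 73 of 83 sites, and below percentile 25 at 48 of them. Over all one-to-one pairs the median SIN3 220HA percentile was 61.7, with quartiles of 37.4 and 81.2. No site had a SIN3 187HA peak below percentile 50 with a SIN3 220HA peak at or above it. The share of all pairs with that form was not counted.

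The pileups gave the same picture in reads. The median summit pileup was 138 reads (interval 123 to 161) in SIN3 187HA and 132 reads (interval 123 to 148) in SIN3 220HA, and the ratio of SIN3 187HA to SIN3 220HA within a site had a median of 1.03 (interval 0.898 to 1.16). In other pairs the medians were 130 reads in SIN3 187HA and 232 reads in SIN3 220HA, with a median ratio of 0.569. The -log10 p-value was higher in SIN3 187HA at 55 of 83 sites, or 66.3% (interval 55.1 to 76.3%), against 13.9% of all pairs. SIN3 187HA signal at the summits was thus like that of other pairs, and SIN3 220HA signal was lower. The mirror set had a like form with the isoforms exchanged. There the wider SIN3 220HA peak had the higher fold enrichment in 84.6% of pairs and the higher -log10 p-value in 96.4%. The median percentile of fold enrichment there was 35.7 for the narrower SIN3 187HA peaks and 57.3 for SIN3 220HA. Lower signal in the narrower partner was thus not particular to this set.

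How common the sites were varied with the SIN3 220HA signal. All pairs were split by SIN3 220HA fold enrichment into 4 groups of equal size. In the lowest group, from 3.00 to 5.29, 65 of 967 belonged to the set, or 6.72% (interval 5.23 to 8.49%). The next group held 11 members, the one after it 1 and the highest 6. In the same split by SIN3 187HA fold enrichment, from the lowest group to the highest, the counts were 21, 28, 16 and 18. The mirror set of wider SIN3 220HA peaks likewise fell away with SIN3 187HA fold enrichment, with 97, 68, 39 and 17 pairs in the same groups.

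A few sites were strong in both isoforms. The upper quartiles of the percentiles over all one-to-one pairs were 77.4 in SIN3 187HA and 81.2 in SIN3 220HA. The share of those pairs with both at 75 or more was not counted. At 5 of the 83 sites both percentiles were at 75 or more. The strongest was chr3L:9666206-9669199, with a fold enrichment of 19.8 in SIN3 187HA, rank 36 of its list, and 31.7 in SIN3 220HA, rank 18 of its list. The pileups were 385 reads in SIN3 187HA and 1080 reads in SIN3 220HA, and the summits were 1 bp apart. The SIN3 187HA peak was nevertheless 2994 bp wide and the SIN3 220HA peak 937 bp, because the SIN3 187HA peak ran 2088 bp further to the low-coordinate side. A SIN3 220HA peak of 1.99-fold stood within that stretch, 1502 bp from the strong one. Higher signal in SIN3 220HA therefore went with the narrower peak here.

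At the other 4 sites strong in both isoforms the summits also lay close together. At chr2R:14416026-14418596 the SIN3 187HA peak of 2571 bp covered a SIN3 220HA peak of 583 bp, with fold enrichments of 15.8 and 12.7 and summits 28 bp apart. At chr2L:2193054-2194754 the widths were 1701 bp for SIN3 187HA and 810 bp for SIN3 220HA, with fold enrichments of 15.7 and 12.3. At chr2L:522395-525154 they were 2760 bp and 964 bp, with fold enrichments of 15.4 and 10.8, and the filtered-out SIN3 220HA peak in the extension reached 3.66-fold, the highest of all 48. At chr3R:8541874-8544176 the SIN3 187HA peak of 2303 bp ran 1454 bp past a SIN3 220HA peak of 1010 bp on the low-coordinate side and stopped 161 bp short of it on the other, with fold enrichments of 11.0 and 13.2. Each of these sites had 1 filtered-out SIN3 220HA peak in the extension, and the summits of none were more than 44 bp apart.

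By contrast, chr3L:15223354-15225715 was strong in SIN3 187HA alone. Its fold enrichment was 13.6 in SIN3 187HA (percentile 95.7) and 4.51 in SIN3 220HA (percentile 24.6), yet the pileups were close, at 245 reads in SIN3 187HA and 236 in SIN3 220HA. The backgrounds were further apart, at 17.2 reads in SIN3 187HA and 51.6 in SIN3 220HA. Reads of the lists are not on the same scale. The list medians were 125 and 189 reads for pileup, and 19.7 and 29.4 reads for background, in SIN3 187HA and SIN3 220HA.

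Among the 40 sites with no other SIN3 220HA peak, the largest ratios, named after their values were seen, were at chr3L:1578735-1579951 and chr2R:16158291-16159585. The first had a SIN3 187HA peak of 1217 bp over a SIN3 220HA peak of 226 bp, a ratio of 5.38, with pileups of 98 and 108 reads. The second had 1295 bp over 300 bp, a ratio of 4.32, with pileups of 161 and 132 reads. At both, the extension lay on the high-coordinate side, over 956 bp and 912 bp, with no SIN3 220HA peak of either list.

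The sites were spread over the genome. They lay on 3R (29 sites), 3L (18), 2R (15), 2L (13), X (7) and 2RHet (1). Arm 3R held 34.9% of the set (interval 24.8 to 46.2%) against 25.1% of all one-to-one pairs, and X held 8.43% (interval 3.46 to 16.6%) against 14.2%. Arms 3L, 2R and 2L held 21.7%, 18.1% and 15.7% of the set, against 21.2%, 21.1% and 17.9% of all pairs. On each of these arms the interval of the set includes the share of all pairs. The mirror set had 18.6% of its pairs on 3R (interval 13.7 to 24.3%) and 20.8% on X (interval 15.7 to 26.8%). The intervals of the sets lie apart on 3R and overlap on X, and the difference between the sets was not tested.

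Most sites of the set were more than 25 kb from another member, and no other set of equal size was drawn for comparison. The gap to the nearest other member on the same chromosome had a median of 345197 bp, and 8 sites lay within 25 kb of another, the closest being 4396 bp apart. To the nearest other filtered peak of the same isoform, the median gap was 2460 bp (interval 1657 to 4396 bp) for the SIN3 187HA peaks of the set and 3138 bp (interval 3002 to 3278 bp) for those of other pairs. For the SIN3 220HA peaks it was 3891 bp (interval 2450 to 5344 bp) in the set and 2368 bp (interval 2259 to 2518 bp) in other pairs. The pairing rule allows no further filtered SIN3 220HA peak under the wide SIN3 187HA peak, so the last difference is in part fixed by the rule.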

How the data were processed

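The authors used Bowtie2 to place reads on dm3, retained those with a unique position, and called peaks over input with MACS2 2.1.0 on joined replicates, duplicate reads included. The deposited unfiltered lists give a score, a fold ratio over the local input, and the -log10 p-value and q-value of each peak. The deposited filtered lists give positions of peaks that passed an irreproducible discovery rate filter and 3-fold enrichment. As replicates were joined, no test between isoforms was made, and retained duplicates can raise pileups. Library totals were not used here, so sequencing depth is unknown.

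Starts of the filtered lists were reduced by 1 and the peaks matched to the unfiltered lists. Pileup and background were solved from the fold enrichment, taken as (pileup + 1) / (background + 1), and the Poisson p-value. Pileups were whole within 0.05 for 9008 of 9011 SIN3 187HA and 8860 of 8862 SIN3 220HA peaks. Shares have exact binomial intervals and medians order-statistic intervals (Python 3.11.15, numpy 2.4.6, scipy 1.17.1, pandas 2.3.3, matplotlib 3.10.9). Overlaps differed from bedtools 2.31.1 in 0 cases, and 0 of 1600 planted pairs were wrong in simulated data.

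The sites and measures were chosen with earlier results of these data known. Named sites were the 6 of largest ratio, the 5 of highest fold enrichment in each isoform, the 4 of largest summit distance, and 2 on either side of the threshold. Sites were not assigned to genes and no sequence was read, because no dm3 genome or annotation was used here.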

Additional observations from a re-analysis of the deposited data

How the results depend on the processing

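No paired analysis was possible because each isoform has a single peak list made from joined replicates. Leaving out each replicate, and the transcription start site comparison, were not run. Of 71 alternative values, 52 stayed within 1.5 times the count or within the interval of the value reported, and 19 did not. The cause was not tested, other than where an alternative by its construction changes the number of peaks or the threshold. The number of sites was 37 with both lists cut at 5-fold, 204 at 1.5 times and 24 at 3 times as wide, and 225 in the unfiltered lists. Of these, 21 of the 37 and 40 of the 225 were sites of the reported set. Joining the SIN3 220HA peaks under a SIN3 187HA peak left 40 sites at a ratio of at least 2, and summing their widths left 49. Over all 83 sites, left or not, the median ratios were then 1.61 and 2.095. The median ratio was 1.90 at 1.5 times and 3.77 at 3 times. The share extended on 1 side was 75.4% with equal numbers of peaks, 38.6% at a limit of 90% of the extra width and 84.3% at 60%. The share with the SIN3 187HA summit inside the SIN3 220HA peak was 75% at 3 times, and that with summits within 50 bp was 65.1%. The share with a filtered-out SIN3 220HA peak was 75.7% at 5-fold and 66.7% with equal numbers of peaks, where more SIN3 220HA peaks are filtered out by construction, 35.3% at 1.5 times and 70.8% at 3 times. Leaving out sites of raised background and joining or summing SIN3 220HA peaks were chosen after seeing the data. In each setting that rebuilt the pairs, pairs with SIN3 187HA at least 2 times as wide were fewer than pairs with SIN3 220HA at least 2 times as wide, by 37 to 153 at 5-fold, 84 to 224 at 50% overlap, 69 to 213 with equal numbers and 225 to 441 in the unfiltered lists. With 1 list per isoform the error of a single width is unknown, and the lowest summit pileups behind the widths of the set were 69 reads in SIN3 187HA and 76 reads in SIN3 220HA.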
